A study of Homo sapiens with 24 samples.

Results

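The genes that encode inhibitors of the cyclin-dependent kinases (CDKs) were followed in U251 cells, an established line from a human glioblastoma (GBM), under G-1, a synthetic agonist of the G protein-coupled estrogen receptor GPER. The members were the 8 genes CDKN1A, CDKN1B, CDKN1C, CDKN2A, CDKN2B, CDKN2C, CDKN2D and CDKN3, found by matching the RefSeq transcript that each probe was designed for to a gene symbol. This gave 11 probes among the 58201 on the array and 8 genes among 24847. There were 6 groups of 4 arrays, 24 in all: cells given DMSO (0.1% by the labels), cells given G-1 at its IC50 and cells given G-1 at 1 µM, each for 24 h or for 72 h. All groups, controls included, had spent 24 h in medium with charcoal-stripped serum, which lacks steroid hormones, before treatment, and the labels call the replicates independent experiments.

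Cells enter S phase when CDK4 or CDK6 with a D-type cyclin, and then CDK2 with cyclin E or A, phosphorylate the retinoblastoma protein and release E2F factors. The Cip/Kip proteins p21 (CDKN1A), p27 (CDKN1B) and p57 (CDKN1C) bind CDK2 complexes, while the INK4 proteins p16 (CDKN2A), p15 (CDKN2B), p18 (CDKN2C) and p19 (CDKN2D) bind CDK4 and CDK6 alone. CDKN3 encodes a phosphatase that removes an activating phosphate from CDK1 and CDK2, and it is transcribed with the genes of mitosis. Gliomas often lose CDKN2A and CDKN2B together by deletion at 9p21. Loss of CDKN2A is also catalogued for U251.

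Values are the log2 of the fluorescence of a spot minus the 75th percentile of its array, so that 0 is the level of that percentile and a step of 1 is a doubling. They compare groups for 1 probe and not one gene with another. A gene with several probes was represented by its brightest, the one with the highest mean over all 24 arrays, those of G-1 1 µM included. A change was called at an adjusted p under 0.05 in limma over 22970 tested probes. RNA came from whole cultures, so fewer expressing cells and less RNA per cell cannot be told apart. The 8 arrays with the 1 µM dose filled 1 of 3 slides, scanned in a second session, and there 38.0 to 40.7% of the spots were well above background against 41.1 to 44.5% on the other 16 arrays. Effects of that dose and of slide or session cannot be told apart, except that a constant offset cancels in the interaction of dose with duration. DMSO and G-1 IC50 shared the other slides.

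Of the 8 genes, 6 were measured and 2 were at background. The CDKN2B probe was well above background on 0 of 24 arrays and the CDKN2C probe on 1 of 24, an array of DMSO 24 h at -3.61. The CDKN2B values lay between -6.61 and -5.41 and give only an upper bound on its level. These probes were not tested and no fold is given. No member had a saturated spot. The other 6 genes, CDKN1A, CDKN1B, CDKN1C, CDKN2A, CDKN2D and CDKN3, each had a probe that was well above background on all 24 arrays. A second CDKN2A probe was well above background on only 10 arrays.

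**Figure D1:**
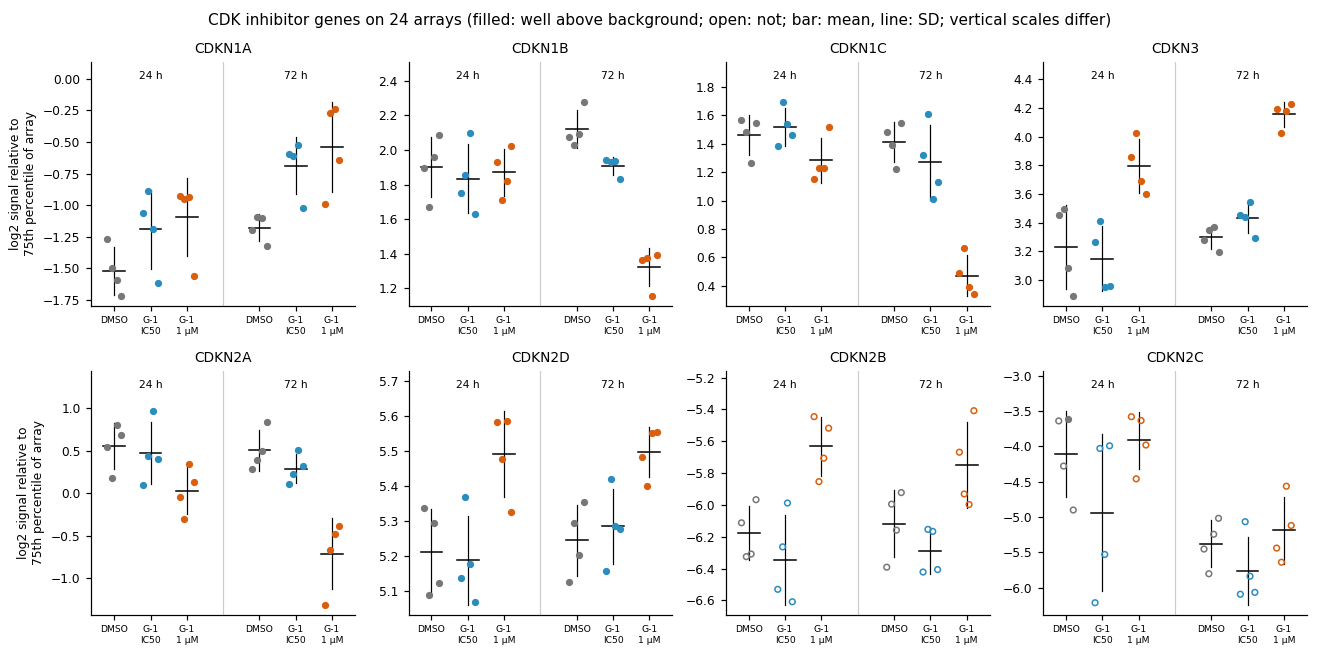
Log2 signal of the brightest probe of each CDK inhibitor gene on the 24 arrays, by treatment and duration, with the mean (bar) and SD (line) of 4 arrays; filled points are well above background and vertical scales differ between panels. CDKN1B, CDKN1C and CDKN2A are lowest in the 4 arrays of G-1 1 µM at 72 h, CDKN3 has its highest mean there, and all CDKN2B points are open.

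At 72 h of G-1 1 µM, all 6 measured genes differed from DMSO, in both directions. CDKN1B, CDKN1C and CDKN2A fell by 0.80, 0.94 and 1.22 on the log2 scale, and CDKN3, CDKN1A and CDKN2D rose by 0.86, 0.64 and 0.25. The background was high, since 65.6% of the 14235 genes tested passed in this comparison, 32.7% as higher and 32.9% as lower. The median log2 fold change was -0.27 over the 6 genes and -0.01 over all genes. The groups did not overlap for any of the 6, against 59.2% of all genes. The 3 falls and 3 rises stood under each of the 21 alternative settings tried for each gene. With a fold change above 2 required as well, which 12.6% of all genes met, 1 of the 6 remained, CDKN2A. After normexp background correction its fall was 0.78, less than 2-fold. Whether the signal of its probe comes from CDKN2A was not tested. The other probes of CDKN1B (-1.08) and CDKN3 (1.24) also met this rule, so the count depends on the probe.

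At the IC50, 0 of the 6 genes passed at 24 h and 0 at 72 h by limma, against 0.232% and 0.892% of all genes. An unadjusted p under 0.05 was reached by 0 genes at 24 h and by 2 at 72 h, CDKN1A and CDKN1B. The groups did not overlap for the same 2 genes at 72 h, against 7.75% of all genes, and for 0 at 24 h, against 2.84%. The methods' t-test with Benjamini-Hochberg adjustment also called 0 at both durations. With a block for the replicate number within each duration, CDKN1A passed at 72 h (limma adjusted p = 0.0492).

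**Figure D2:**
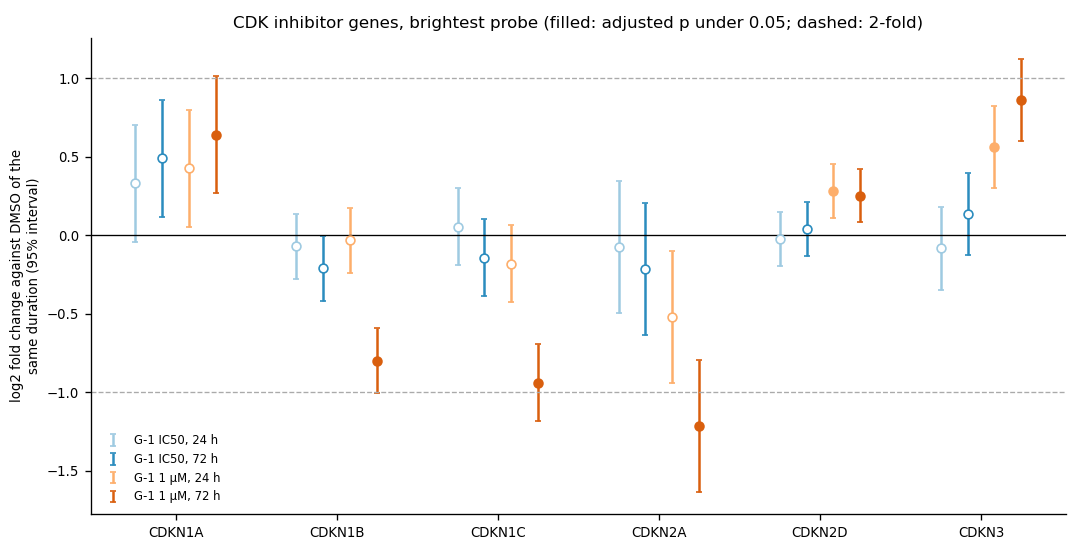
Log2 fold change against DMSO of the same duration, with its 95% interval, for the 6 measured genes at the IC50 and at 1 µM; filled points passed an adjusted p under 0.05 and dashed lines mark 2-fold. The filled points are all at 1 µM, and CDKN1B, CDKN1C and CDKN2A at 72 h lie below 0 while CDKN1A, CDKN2D and CDKN3 lie above it.

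Among the Cip/Kip genes, CDKN1A was the one that rose. Its probe read -1.27, -1.50, -1.59 and -1.72 on the arrays of DMSO 24 h and -1.06, -0.89, -1.19 and -1.62 on those of G-1 IC50 24 h. With G-1 1 µM for 24 h the values were -0.92, -0.95, -0.94 and -1.56. At both doses 3 of 4 arrays lay above every control array, and the last lay within them. At 72 h, CDKN1A read -1.20, -1.09, -1.10 and -1.32 with DMSO, -0.59, -0.61, -0.52 and -1.02 at the IC50 and -0.99, -0.27, -0.24 and -0.64 at 1 µM. All 8 treated arrays of 72 h were above all 4 controls, and the 2 doses overlapped.

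The rise of CDKN1A at G-1 1 µM was 0.64 (SE 0.18), or 1.56-fold, at 72 h (limma adjusted p = 0.00379). At the IC50 for 72 h it was 0.49 (95% interval 0.12 to 0.86), which did not pass (limma adjusted p = 0.360), although the groups were apart (exact permutation p = 0.0286, two-sided, the smallest that 4 against 4 arrays allow). A block for the replicate number over all arrays did not change this (limma adjusted p = 0.0909), but with the block within each duration it passed (limma adjusted p = 0.0492). With the slide as a block the difference at the IC50 for 72 h was 0.51, and within slide 2 it was 0.43. Neither passed (limma adjusted p = 0.335 and 0.761). Within slide 1 it was 0.60, but replicate 2 was the only array of the IC50 at 72 h there. The doses differed at 72 h by 0.15 (95% interval -0.22 to 0.52), which did not pass, and the interval does not exclude a difference in either direction. At 24 h the differences from DMSO were 0.33 at the IC50 and 0.43 at 1 µM, and neither passed (limma adjusted p = 0.995 and 0.0783). With a block for the replicate number the latter passed, over all arrays or within each duration (limma adjusted p = 0.0218 and 0.0126). It also passed without a block after quantile normalization (0.47, limma adjusted p = 0.0424) or normexp background correction (0.38, limma adjusted p = 0.0149). Without the block but also without the lowest array of G-1 1 µM 24 h, replicate 4, it became 0.58 with a limma adjusted p of 0.0189. That was the only 1 of 8 fits with an array left out in which it passed. In the others the limma adjusted p reached 0.182. In DMSO alone CDKN1A was 0.34 higher at 72 h than at 24 h, which did not pass (limma adjusted p = 0.327).

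CDKN1B fell at 72 h of G-1 1 µM, and its 2 probes, both designed for NM_004064, differed over when this was first seen. The brighter probe read 1.90, 1.67, 1.96 and 2.08 with DMSO and 1.93, 1.71, 1.82 and 2.02 with G-1 1 µM at 24 h. After 72 h it read 2.08, 2.03, 2.09 and 2.28 with DMSO and 1.37, 1.37, 1.15 and 1.39 with G-1 1 µM. The groups thus overlapped at 24 h and were far apart at 72 h. The dimmer probe read 1.99, 2.01, 1.91 and 2.05 with DMSO and 1.35, 1.41, 1.48 and 1.66 with G-1 1 µM at 24 h. The values at 72 h were 2.17, 1.99, 1.91 and 2.06 with DMSO and 1.11, 0.67, 0.98 and 1.04 with G-1 1 µM. For this probe every array of G-1 1 µM lay below every control at both durations.

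The fall of CDKN1B at 72 h was 0.80 (SE 0.10) by the brighter probe (limma adjusted p = 7.0e-07) and 1.08 (SE 0.11) by the dimmer (limma adjusted p = 2.5e-08), the latter past 2-fold. At 24 h the brighter probe gave -0.03 (95% interval -0.24 to 0.17, limma adjusted p = 0.835) and the dimmer -0.52 (95% interval -0.74 to -0.30, limma adjusted p = 0.00149). The intervals of the probes do not overlap, so whether CDKN1B changed at 24 h depends on the probe. The interaction with duration passed for both, at -0.77 and -0.57 (limma adjusted p = 0.000334 and 0.00676). At the IC50 the brighter probe read 1.94, 1.93, 1.93 and 1.83 at 72 h, each below every DMSO array, a difference of -0.21 that did not pass (limma adjusted p = 0.544). The dimmer probe gave -0.05 there (95% interval -0.27 to 0.17), with overlapping groups. Within slide 2 the brighter probe gave -0.18 at the IC50 for 72 h, which did not pass (limma adjusted p = 0.764). Within slide 1 it gave -0.22, with replicate 2 as the only array of the IC50 there. The ranking of these probes by brightness drew on the G-1 1 µM arrays too. With DMSO at 24 h the probe called dimmer had the higher mean (1.99 against 1.90). So it did at the IC50 for 24 h (1.91 against 1.83) and 72 h (1.98 against 1.91). With DMSO at 72 h it had the lower mean (2.03 against 2.12). Counts of genes use the probe called brighter.

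**Figure D3:**
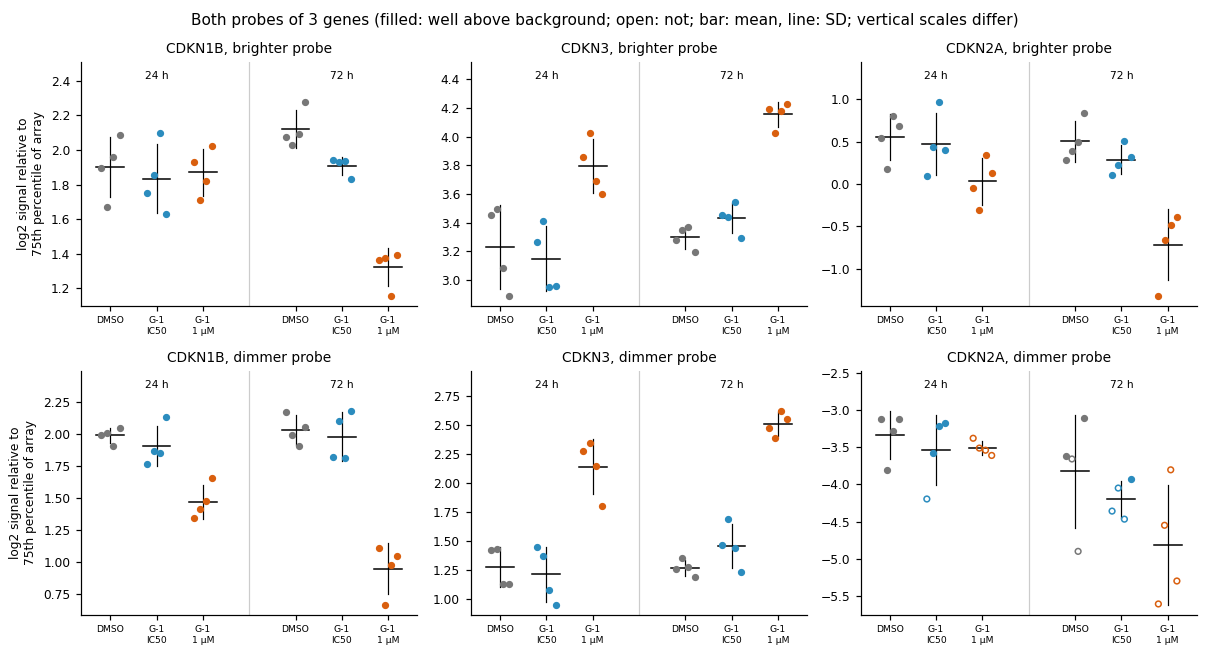
Log2 signal of the brighter (top) and dimmer (bottom) probe of CDKN1B, CDKN3 and CDKN2A on the 24 arrays, with the mean (bar) and SD (line) of 4 arrays; open points are not well above background. With G-1 1 µM at 24 h, CDKN1B lies among the controls by the brighter probe and below them by the dimmer, both CDKN3 probes are raised, and most points of the dimmer CDKN2A probe are open.

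CDKN1C, an imprinted gene, fell at 72 h of G-1 1 µM. At 24 h it read 1.57, 1.48, 1.26 and 1.55 with DMSO, 1.39, 1.70, 1.54 and 1.46 at the IC50 and 1.15, 1.23, 1.23 and 1.52 at 1 µM. At 72 h it read 1.48, 1.39, 1.22 and 1.55 with DMSO, 1.32, 1.61, 1.01 and 1.13 at the IC50 and 0.49, 0.67, 0.39 and 0.34 at 1 µM. The last group lay apart from all 20 other arrays. The fall against DMSO was 0.94 (SE 0.12), or 1.92-fold (limma adjusted p = 8.1e-07), and against the IC50 it was 0.80 (limma adjusted p = 7.4e-06). At 24 h the difference from DMSO was -0.18 (95% interval -0.43 to 0.06), which did not pass. The interaction of 1 µM with time was -0.76 and passed (limma adjusted p = 0.00175).

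Among the INK4 genes, CDKN2A fell, and in the main fit it fell most in the whole set. Its brighter probe, designed for NM_058197, read 0.55, 0.17, 0.80 and 0.68 with DMSO and -0.05, -0.30, 0.34 and 0.13 with G-1 1 µM at 24 h. By 72 h it read 0.28, 0.39, 0.50 and 0.83 with DMSO, 0.10, 0.22, 0.50 and 0.32 at the IC50 and -1.32, -0.67, -0.48 and -0.39 at 1 µM. The arrays of 1 µM at 72 h were the lowest of all, with no overlap, and those of 24 h overlapped the controls. The fall at 72 h was 1.22 (SE 0.20), or 2.32-fold (limma adjusted p = 2.6e-05). After normexp background correction it was 0.78, less than 2-fold, and it stayed past the threshold of adjusted p. CDKN1C fell by at least 0.86 under each of its 21 alternative settings, so which gene fell most depends on the background correction. At 24 h the difference of CDKN2A was -0.52 and did not pass (limma adjusted p = 0.0581). With a block for the replicate number it passed, over all arrays or within each duration (limma adjusted p = 0.00930 and 0.00590). With no block it also passed with the 50th percentile (limma adjusted p = 0.0472) or the percentile of detected probes (limma adjusted p = 0.0289). So it did with an intensity trend in the variance (limma adjusted p = 0.0427) and with probes above background on all 24 arrays (limma adjusted p = 0.0482). With no block and 1 array left out it passed in 2 of 8 fits. These were without DMSO 24 h replicate 2 (-0.64, limma adjusted p = 0.0310) and without G-1 1 µM 24 h replicate 3 (-0.62, limma adjusted p = 0.0419). In the others the limma adjusted p reached 0.170. The interaction of 1 µM with time was -0.70 and did not pass (limma adjusted p = 0.0690). Among 13 other settings that left out no single array, 3 gave a pass for this interaction. Replicate blocks over all arrays or within each duration did so (limma adjusted p = 0.0112 and 0.00693). A slide block did too (-0.77, limma adjusted p = 0.0320). In the rest the limma adjusted p reached 0.194. Leaving out 1 array gave a pass in 2 of 16 fits. Without G-1 1 µM 24 h replicate 2 the interaction was -0.81 (limma adjusted p = 0.0402). Without G-1 1 µM 72 h replicate 4 it was -0.80 (limma adjusted p = 0.0445).

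The dimmer CDKN2A probe, designed for NM_001363763, was well above background on 4, 3 and 0 of 4 arrays at 24 h with DMSO, the IC50 and 1 µM, and on 2, 1 and 0 at 72 h. No array of G-1 1 µM thus detected it, and the lowest intensity well above background was 16.1 to 24.8 on those arrays and 13.0 to 16.6 on the others. It passed the filter on dim probes only through DMSO 24 h, so no difference or test is given for it. The files hold no probe sequences, so which transcripts of the locus either probe binds was not tested, nor was it tested whether the signal of the brighter probe comes from CDKN2A in a line catalogued as lacking it. Among its neighbours at 9p21, MTAP was well above background on all 24 arrays, and CDKN2B-AS1, the antisense transcript beside CDKN2B, on 0 with each of its 4 probes. MTAP rose by 0.47 at 72 h of G-1 1 µM (limma adjusted p = 1.4e-06), DMRTA1 rose by 0.56 and KLHL9 fell by 0.79.

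CDKN2D rose slightly with G-1 1 µM at both durations, and the call at 24 h depended on the setting. It read 5.34, 5.09, 5.29 and 5.12 with DMSO and 5.58, 5.47, 5.58 and 5.32 with G-1 1 µM at 24 h, where the lowest treated array was below the highest control. Its values at 72 h were 5.13, 5.29, 5.20 and 5.35 with DMSO and 5.48, 5.40, 5.55 and 5.55 with G-1 1 µM, without overlap. The rises were 0.28 (SE 0.08, limma adjusted p = 0.0151) and 0.25 (SE 0.08, limma adjusted p = 0.0109), or 1.22-fold and 1.19-fold. The first did not pass with the 50th percentile in place of the 75th (0.24, limma adjusted p = 0.0687), in a fit to the compared arrays alone (limma adjusted p = 0.0609), by the methods' t-test with Benjamini-Hochberg adjustment, or without G-1 1 µM 24 h replicate 1 (0.25, limma adjusted p = 0.0512). The IC50 differed from DMSO by -0.02 at 24 h and 0.04 at 72 h, and the interaction of 1 µM with duration was -0.03 (95% interval -0.27 to 0.21).

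CDKN3 rose by both of its probes, each designed for NM_005192. The brighter read 3.46, 3.50, 3.08 and 2.89 with DMSO, 3.26, 3.41, 2.95 and 2.96 at the IC50 and 3.86, 4.03, 3.69 and 3.60 at 1 µM for 24 h. At 72 h it read 3.28, 3.35, 3.37 and 3.19 with DMSO, 3.45, 3.44, 3.54 and 3.30 at the IC50 and 4.19, 4.03, 4.18 and 4.23 at 1 µM. Every array of 1 µM was above every array of the other 2 treatments at both durations. The rises were 0.56 (SE 0.13, limma adjusted p = 0.00282) at 24 h and 0.86 (SE 0.13, limma adjusted p = 5.9e-06) at 72 h. The first did not pass by the methods' t-test with Benjamini-Hochberg adjustment (adjusted p = 0.0758). The dimmer probe gave 0.86 and 1.24 (limma adjusted p = 9.6e-05 and 3.7e-08), the latter past 2-fold. The interaction with duration did not pass for either probe, at 0.30 and 0.38 (limma adjusted p = 0.223 and 0.109).

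The sequences before the starts of CDKN3 and CDKN1B are shown because these genes moved in opposite directions at 72 h, each by both of its probes. They are the 250 bases before the start in the RefSeq promoter table (GRCh38.p14), chr14:54396757-54397006 on the plus strand for CDKN3 and chr12:12717118-12717367 on the plus strand for CDKN1B. Capitals mark CCAAT or its reverse complement ATTGG, and in CDKN3 also TTCAAA, the reverse complement of TTTGAA.
CDKN3: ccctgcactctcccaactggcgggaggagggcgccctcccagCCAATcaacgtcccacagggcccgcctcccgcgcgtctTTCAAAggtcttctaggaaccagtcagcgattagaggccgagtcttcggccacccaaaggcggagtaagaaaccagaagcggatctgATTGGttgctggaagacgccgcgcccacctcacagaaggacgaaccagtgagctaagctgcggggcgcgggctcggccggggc
CDKN1B: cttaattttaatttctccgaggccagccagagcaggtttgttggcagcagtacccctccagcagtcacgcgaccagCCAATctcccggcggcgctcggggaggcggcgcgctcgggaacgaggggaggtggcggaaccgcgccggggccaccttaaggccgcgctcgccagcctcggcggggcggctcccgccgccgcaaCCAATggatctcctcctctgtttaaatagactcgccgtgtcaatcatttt

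The search covered both strands for 5 motifs, none of which contains another. The cell cycle homology region, an element known from promoters of mitotic genes (CHR, TTTGAA or TTCGAA) was in 14.3% of 35116 such windows, CCAAT in 32.0%, E2F sites (TTTCCCGC or TTTGGCGC) in 1.93%, the GC box GGGCGG in 42.6% and the FOXO site GTAAACA in 2.98%. E2F sites and GC boxes can share bases. CDKN3 held 1 CHR and 2 CCAAT matches, and CDKN1B held 2 CCAAT matches and 1 GC box. CDKN1A held 4 GC boxes, and CDKN2D held 1 CCAAT match and 2 GC boxes. No E2F or FOXO letters were found in the 10 windows of 7 members. CDKN1C had no entry in the table.

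Set against each other, the doses differed for more of the genes at 72 h than at 24 h, and the same held over all genes tested. G-1 1 µM was higher than the IC50 for 2 of 6 genes at 24 h, CDKN2D by 0.30 and CDKN3 by 0.65, where 25.2% of all genes passed, 16.1% as higher. CDKN2D did not pass there with the 50th percentile (0.18, limma adjusted p = 0.173) or in a fit to the compared arrays alone (limma adjusted p = 0.0527). Nor did it by the methods' t-test with Benjamini-Hochberg adjustment (adjusted p = 0.0706). With the replicate number as a block CDKN2A was lower as well, by -0.44 (limma adjusted p = 0.0238, and 0.0154 with the block within each duration), and 29.6% and 31.7% of all genes passed. At 72 h it was higher for the same 2 genes, by 0.21 and 0.72, and lower for 3, CDKN1B by -0.59, CDKN1C by -0.80 and CDKN2A by just over 2-fold, against 64.8% of all genes in either direction. The call of CDKN2D at 72 h (limma adjusted p = 0.0298) was lost without any 1 of 5 arrays, namely replicates 3 and 4 of 1 µM and replicates 1, 3 and 4 of the IC50, with a limma adjusted p of up to 0.101. It was also lost in 5 of 13 settings that left out no single array. These were the 50th percentile (0.10, limma adjusted p = 0.352), the percentile of detected probes, quantile normalization, normexp and no filter on dim probes. These comparisons share the arrays of G-1 1 µM with those against DMSO. In DMSO alone, 0 of 6 genes passed between 24 h and 72 h by limma, 1 had an unadjusted p under 0.05, and 3.51% of all genes passed.

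Against DMSO at 24 h of G-1 1 µM, 2 of 6 genes passed, CDKN2D and CDKN3, both higher, where 29.3% of all genes passed, 17.2% as higher. With the replicate number as a block 4 of 6 passed, CDKN1A and CDKN2A besides these, against 34.1% of all genes, and 36.2% with the block within each duration. The groups did not overlap for 1 of 6, CDKN3, against 29.1% of all genes. The interaction of the 1 µM dose with time passed for 2 of 6, CDKN1B and CDKN1C, both lower, where 34% of all genes passed in either direction and 18.3% as lower. For the IC50 it passed for 0 of 6 by limma, with 0 at an unadjusted p under 0.05, and for 0.014% of all genes.

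Most genes of a list of CDKs and cyclins rose. The list also holds CDK7, CCNH and MNAT1, which form the CDK-activating kinase. Of its 15 genes 14 were measured, and at 72 h of G-1 1 µM 12 rose and 0 fell, where 32.7% of all genes were higher and 32.9% lower. The median log2 fold change was 0.54 over the 14 genes and -0.01 over all genes. At 24 h 8 rose and 0 fell, where 17.2% of all genes were higher. The G1 kinases CDK4, CDK6 and CDK2 rose by 0.39, 0.92 and 0.85 at 72 h, and CDK1, the kinase of mitosis, by 0.32. The cyclins of G1, CCND1 and CCND3, rose by 1.68 and 0.60, and CCNA2 and CCNB1, cyclins of S phase and mitosis, by 1.24 and 1.06. CCNE1 rose by 0.26, and CCNE2 differed by 0.21 and did not pass (limma adjusted p = 0.290). At the IC50 0 of the 14 passed at either duration, against 0.232% and 0.892% of all genes.

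**Figure D4:**
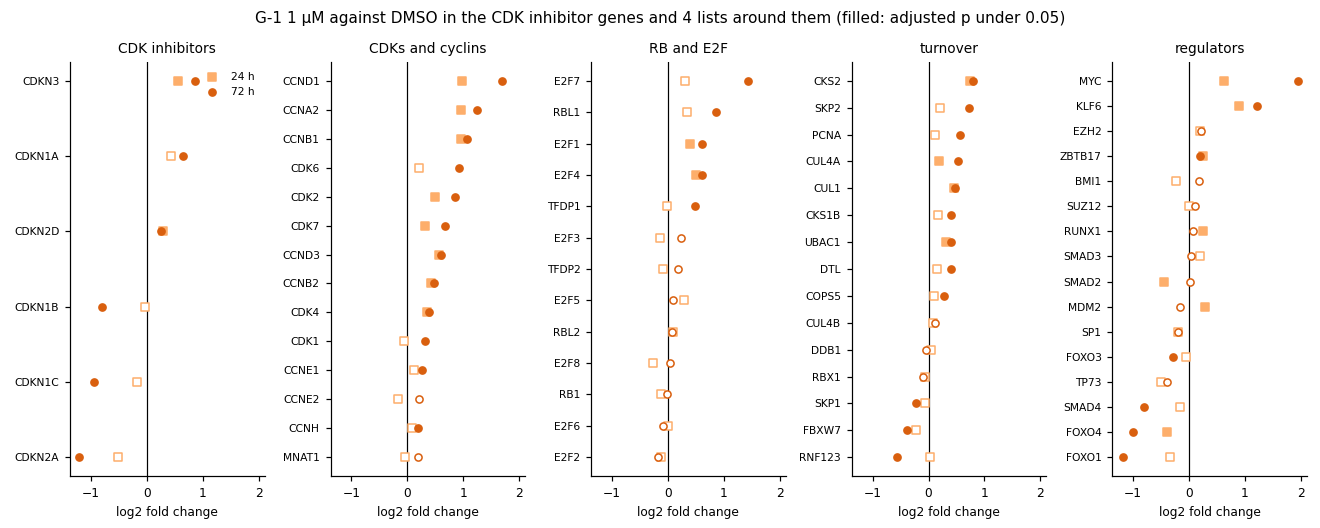
Log2 fold change of G-1 1 µM against DMSO at 24 h (squares) and 72 h (circles) for the measured CDK inhibitor genes, the list of CDKs and cyclins with the CDK-activating kinase, the RB and E2F family, factors of inhibitor turnover and regulators of inhibitor transcription; filled points passed an adjusted p under 0.05. The inhibitors lie on both sides of 0 at 72 h, while all 12 filled circles of the CDKs and cyclins list lie above it.

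Downstream of the kinases, the RB and E2F family had 5 of 13 genes higher and 0 lower at 72 h of G-1 1 µM, and the share higher was near the 32.7% of all genes. E2F7, a repressor of the family, rose by 1.43, RBL1, which encodes the pocket protein p107, by 0.85 and E2F1, an activator, by 0.62. RB1 differed by -0.01 and did not pass (limma adjusted p = 0.908). Of 15 genes for the turnover of the inhibitor proteins, 9 rose and 3 fell, where 65.6% of all genes passed in either direction. SKP2 and CKS1B, which bring p27 to its ubiquitin ligase, rose by 0.73 and 0.40, CKS2, a paralog of CKS1B, rose by 0.80, and RNF123, a subunit of another ligase for p27, fell by 0.57.

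Among 16 measured regulators of inhibitor transcription, 3 rose and 4 fell at 72 h of G-1 1 µM, where 32.7% of all genes were higher and 32.9% lower. MYC, which represses several of the inhibitor genes, rose by 1.95, KLF6, known to activate CDKN1A, by 1.22, and FOXO1, known to activate CDKN1B, fell by 1.19. MDM2, a ubiquitin ligase, differed by -0.17 and did not pass (limma adjusted p = 0.130). At 24 h MDM2 had risen by 0.29 (limma adjusted p = 0.0325).

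The patterns of the 6 measured genes over the 24 arrays were compared with each other and with other genes. The Pearson correlation of CDKN1B was 0.79 with CDKN1C and 0.81 with CDKN2A, and that of CDKN2D with CDKN3 was 0.78, while CDKN3 had -0.86 with CDKN2A. These describe arrays that share the contrast of G-1 1 µM at 72 h and carry no test. Among 12707 genes, the patterns most like CDKN3 were those of KIF11 (0.98), PTTG2 (0.97) and CENPE (0.97), and those most like CDKN1B were ZNF444 (0.97), NME3 (0.97) and GPAA1 (0.96). CDKN1A was most like CLN6 (0.86), STC1 (0.85) and TSKU (0.83), and CDKN2D most like FANCI (0.90), KIF23 (0.89) and PI4K2A (0.89). CDKN1C was most like NALT1, CDK3 and RAB26 (0.95 each), and CDKN2A most like MCC (0.93), LSAMP (0.93) and CIMAP1D (0.92).

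The markers fixed for glioma cells, VIM, NES, GFAP, CD44, SOX2, SOX9, S100B and EGFR, were all well above background on 24 arrays. At 72 h of G-1 1 µM 7 of the 8 fell, where 32.9% of all genes were lower, of which GFAP fell by 2.75 and S100B fell by 2.00. Their summed signal was 694 to 791 times the 75th percentile there and 970 to 1134 with DMSO, and its part in the changes of the inhibitor genes was not tested. The immune markers PTPRC and AIF1, PECAM1 of endothelium and EPCAM and CDH1 of epithelium were above background on 0 arrays. Markers of neurons (RBFOX3, SYT1 and SNAP25), of oligodendrocytes (MOG and MBP), VWF and CDH5 of endothelium and KRT8 of epithelium were detected, though MOG on 17 arrays, CDH5 on 16 and VWF on 23. No difference or test is given for MOG and CDH5, whose signal was near the background. Of the others, RBFOX3, SNAP25, MBP, VWF and KRT8 fell at 72 h of G-1 1 µM, where 32.9% of all genes were lower, and SYT1 rose. On the same scale the summed neuronal signal was 2.63 to 3.15 there and 4.61 to 6.77 with DMSO, and that of the oligodendrocyte markers was 2.30 to 3.04 and 3.83 to 4.48. Their part was not tested either.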

How the data were processed

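RNA of U251 cells was hybridized to 24 one-color Agilent arrays. The authors deposited the intensity of each spot with quality flags, background-subtracted by Feature Extraction (12.1.1.1 per the file headers, 10.7.3.1 per the submitters' processing notes). They also deposited probe-level log2 values, used as an alternative. Titles gave the groups, since another label gave the other duration for 2 groups, the IC50 at 24 h and 1 µM at 72 h. Outlier spots were left out, spots of 1 probe averaged on the log2 scale, and the 75th percentile of each array subtracted. Probes well above background on all 4 arrays of a group were tested. A model of the 6 group means was fitted with limma 3.58.1 in R 4.3.3, with Benjamini-Hochberg adjustment over all tested probes. The script was tested on simulated data. Members and lists were chosen with earlier results of these data known. Some genes of the lists are not reported here and were left out of the list counts. Named genes were all members, fixed genes of each list, and the 3 largest changes per list at 72 h of G-1 1 µM. The design of the array is on hg19, and the promoters are on GRCh38.p14. Pairing by replicate number was judged by the data alone. At 24 h all 4 same-numbered pairs of G-1 1 µM with DMSO and with the IC50 deviated together with a correlation over 0.1 (0.17 to 0.28 and 0.20 to 0.31). The pairs of DMSO with the IC50 at 24 h did not all do so (lowest -0.11), so the pairing is not established. Correlations between replicates were 0.990 to 0.996. The number of arrays limits precision. The alternatives were other scalings, normexp with an offset of 50, other filters, the deposited table, other fits and tests, slide and replicate blocks, the other probe, and each array left out.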

Additional observations from a re-analysis of the deposited data

Results flagged for a closer look

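Of 54 groups of 4 arrays, 3 held an array far from the other 3, where chance gives about 1 in 20. CDKN1A on G-1 1 µM 24 h replicate 4 was -1.56 against -0.95 for the nearest array, a gap of 0.953 of the range of the group. CDKN1B by its brighter probe was 1.83 against 1.93 on the lowest array of G-1 IC50 72 h (0.871 of the range) and 1.15 against 1.37 on the lowest of G-1 1 µM 72 h (0.882 of the range).

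The effect of G-1 1 µM differed between 24 h and 72 h in the interaction test for CDKN1B, by -0.767 on the log2 scale with the brighter probe and -0.565 with the dimmer, and for CDKN1C, by -0.757.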

How the results depend on the processing

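Each of the 6 calls at 72 h of G-1 1 µM against DMSO stood under all 21 alternatives for that gene, and with each of 8 arrays left out 6 genes were called (lowest 6, highest 6). With a fold change above 2 required, the count was 1 there, 0 at 24 h, 0 and 1 against the IC50 at 24 h and 72 h, and 0 for the interaction of 1 µM with duration. The methods' t-test with that fold change gave 0 at 24 h and 1 at 72 h against DMSO, and 0 and 1 against the IC50. With Benjamini-Hochberg adjustment it gave 0 at 24 h against DMSO and 1 against the IC50. A fit to the arrays of the groups compared gave 1 at 24 h, against DMSO and against the IC50. With 1 array left out, the count at 24 h was 1 to 3 against DMSO.

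Of the 6 comparisons within a duration, 2 had all 4 same-numbered pairs correlated over 0.1, those of G-1 1 µM with DMSO and with the IC50 at 24 h, and the other 4 did not. Within a duration 17 of 24 pairs were over 0.1, and over all groups 33 of 60 (range -0.32 to 0.53). Of 24 arrays, 13 matched best an array of their own number. With the replicate number as a block, 4 genes were called at 24 h of G-1 1 µM in place of 2. With a block within each duration, 4 were called there and 1 at the IC50 for 72 h (CDKN1A, limma adjusted p = 0.0492). For the interaction of 1 µM with duration 4 were called, CDKN1B, CDKN1C, CDKN2A and CDKN3. In all, the block changed 4 of 54 single calls and the block within each duration 6 of 54, each from not passed to passed.

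With the probe of smallest p in place of the brightest, CDKN1B of 1 µM against the IC50 at 24 h turned from 0.04 to -0.43 (limma adjusted p = 0.00563), since the other probe was used. Those of CDKN1A and CDKN2A at 24 h were gained under several settings. The cause was not tested. Dim signal limits CDKN2B, CDKN2C and the dimmer CDKN2A probe.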
